A study of Homo sapiens with 9 samples.

Results

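The shared response to both siRNAs against ZIP7 was read from all 9 libraries of the series. A gene was counted as shared when each of the 6 siZIP7 libraries lay above all 3 siNC libraries, or each lay below them, in TMM-scaled CPM, the reads of a gene as a proportion of its library's counted reads. Of 16761 genes tested, 6613 met this rule. They were 3063 shared higher genes, 18.3% of those tested, and 3550 shared lower genes, 21.2% of those tested. The rule used the measured values, so the shared state of a gene is a description and not a test.

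ZIP7 is the product of SLC39A7, a zinc transporter of the endoplasmic reticulum (ER) and Golgi membranes that moves zinc from the lumen to the cytosol. The ER folds secreted and surface proteins, and zinc is held by several of its folding enzymes. When unfolded proteins build up, the sensors IRE1, ATF6 and PERK start the unfolded protein response. IRE1 splices XBP1 mRNA, ATF6 is cut into a transcription factor, and PERK slows translation and raises ATF4. Among their target genes are chaperones and the machinery that returns misfolded proteins to the cytosol for degradation.

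Cells of the line MDA-MB-231, derived from triple-negative breast cancer, were reverse transfected for 96 h. The 3 groups were a nontargeting control siRNA (siNC), the siRNA siZIP7_1 and the siRNA siZIP7_2, with 3 libraries each. Both ZIP7 siRNAs were compared with the same siNC libraries, so the contrast of each with siNC is not independent of the other. The siZIP7 reagents were bought from different suppliers, and their sequences are not printed here. The sources used here do not say that the libraries of a group came from separate cultures, so p-values measure only the spread between these libraries, which may be technical. The libraries held 24153785 to 30454419 reads assigned to a gene. The floor used for a detected gene, 3 counts, was 0.0941 to 0.129 CPM, and it covers counting error only. The share of reads on no gene was 7.43 to 8.28% in siNC, 7.8 to 9.62% in siZIP7_1 and 9.99 to 11.5% in siZIP7_2. Mitochondrial genes took 2.26 to 2.65%, 2.66 to 2.81% and 3.27 to 3.88% of the counts in the same order. The part of these shares in the results was not tested. Of the 8 markers of the line's identity, the mesenchymal marker VIM was at 5333 to 5688 CPM in siNC, the progesterone receptor PGR was at 0 in the 3 siNC libraries and the estrogen receptor ESR1 was at 0.0712 to 0.109 CPM. The receptor ERBB2 was at 71.7 to 75.6 CPM in siNC, the epithelial keratin KRT18 at 238 to 258 CPM and the epithelial adhesion protein EPCAM at 6.35 to 6.91 CPM. The surface glycoprotein CD44 was at 787 to 861 CPM in siNC, 438 to 502 CPM in siZIP7_1 and 1727 to 1826 CPM in siZIP7_2. The epithelial cadherin CDH1 was at 0.363 to 0.605, 3.98 to 4.52 and 0.79 to 1.28 CPM in the same order. ERBB2, KRT18 and EPCAM were above siNC in siZIP7_1 and below it in siZIP7_2. Of the 7 identity markers tested, 2 were shared higher, 1 was shared lower and 4 were neither. The summed level of 13 leukocyte markers was 8.81 to 10.1 CPM in siNC, 2.92 to 3.46 CPM in siZIP7_1 and 17.9 to 23.7 CPM in siZIP7_2. CD14 was at 1.29 to 2.4 CPM in siNC, 0.515 to 0.583 CPM in siZIP7_1 and 8.72 to 11.9 CPM in siZIP7_2. CSF1R was at 3.95 to 4.36, 0.0364 to 0.172 and 7.44 to 10.2 CPM in the same order. PTPRC moved otherwise, with 0.344 to 0.436, 0.79 to 1.02 and 0.272 to 0.362 CPM. The B cell marker MS4A1 was at 0 in all libraries.

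The targeted gene SLC39A7 was checked first. It read 321, 343 and 322 CPM in siNC, 35.4, 32.9 and 38.6 CPM in siZIP7_1 and 20.5, 19.5 and 17.6 CPM in siZIP7_2. All 6 siZIP7 libraries were far below the controls, and those of siZIP7_2 were below those of siZIP7_1. The log2 fold change of the mean of both siRNAs against siNC was -3.65 (SE 0.047, edgeR quasi-likelihood fit). siZIP7_2 left less SLC39A7 than siZIP7_1 did, with a log2 difference of -0.89 (95% interval -1.03 to -0.76).

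The same test over all 16761 genes asked which genes differed between siNC and the mean of both siRNAs. It called 5900 genes higher, 35.2% of those tested, and 6372 lower, 38.0% of those tested. The contrast uses the same libraries as the shared rule, so what follows for the shared genes is a description. All but 12 shared higher and 14 shared lower genes passed the threshold. Of the shared genes, 2764 higher and 3317 lower ones also passed the threshold with each siRNA alone. The median log2 fold change of the mean was 0.82 over the shared higher genes and -0.70 over the shared lower genes, beside -0.01 over all genes tested. The gap, which is the distance from the nearest siZIP7 library to the nearest siNC library, was mostly small. Its median was 1.24-fold for shared higher and 1.21-fold for shared lower genes. It reached 2-fold in 307 higher and 190 lower genes, and 4-fold in 31 and 18. The members just inside the rule were PAF1, with a gap of 1.0002-fold, and IGF2BP3, with a gap of 1.0001-fold, so a gene there could fall outside with a small change in scaling.

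The widest gaps upward were in genes of unlike function. LINC02407, a long non-coding RNA, read 2.4, 2.62 and 2.31 CPM in siNC, 34.7, 33.9 and 32.9 CPM in siZIP7_1 and 35.6, 38.5 and 36.8 CPM in siZIP7_2. Its nearest libraries were 12.3-fold apart, and the 6 siZIP7 libraries lay close together. KISS1, which encodes the precursor of the secreted peptide kisspeptin, read 1.85, 2.79 and 1.85 CPM in siNC, 39, 35 and 39.8 CPM in siZIP7_1 and 57.4, 52.1 and 61 CPM in siZIP7_2. Its log2 fold change was 4.44 (SE 0.1), with siZIP7_2 above siZIP7_1. MARCH4, a membrane-bound ubiquitin ligase, read 8.21, 8.68 and 7.76 CPM in siNC, 114, 117 and 112 CPM in siZIP7_1 and 61, 68.2 and 67.7 CPM in siZIP7_2. HIST2H2BE, a histone H2B gene, and TMC8, a membrane protein gene, completed the upper end with FLI1, described with the regulators. HIST2H2BE was at 1.68 to 2.18 CPM in siNC, at 22.2 to 30.5 CPM in siZIP7_1 and at 48.1 to 64.7 CPM in siZIP7_2. TMC8 was at 0.387 to 0.472 CPM in siNC, at 34.7 to 37.3 CPM in siZIP7_1 and at 4.23 to 6.21 CPM in siZIP7_2, so the siRNAs shared its direction and not its size.

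The widest gap downward was in CD96, a receptor of T and natural killer cells that binds the poliovirus receptor. CD96 read 65, 55.1 and 67.9 CPM in siNC, 3.61, 3.37 and 3.73 CPM in siZIP7_1 and 4.58, 4.51 and 3.96 CPM in siZIP7_2. Its log2 fold change was -3.99 (SE 0.07), a larger fall than that of SLC39A7 itself. CDK15, a little-studied cyclin-dependent kinase, read 5.37, 5.8 and 5.8 CPM in siNC, 0.692, 0.653 and 0.784 CPM in siZIP7_1 and 0.543, 0.888 and 0.769 CPM in siZIP7_2. VIPR1, HAS2 and GJA1, described below, complete the list with SLC39A7.

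**Figure D1:**
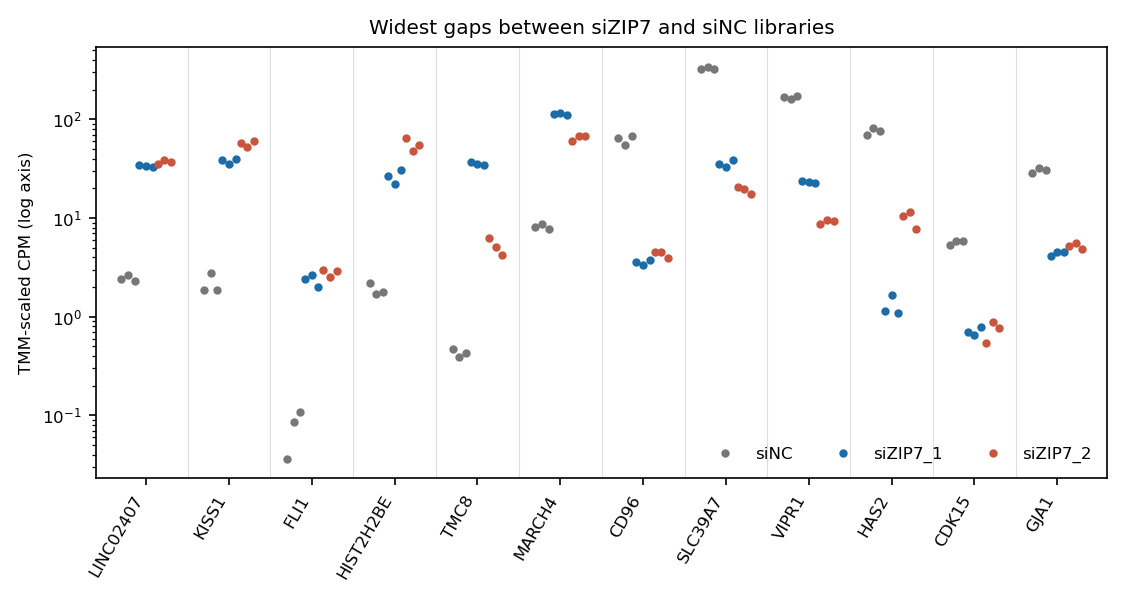
TMM-scaled CPM on a log axis of each library (1 point per library, 3 per group) for the 6 genes with the widest gap in each direction. In each gene all siNC points lie on one side of all siZIP7 points. The siRNAs differ most in HAS2, TMC8 and VIPR1, and less in HIST2H2BE, SLC39A7, MARCH4 and KISS1.

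The size of the response was compared between siZIP7_2 and siZIP7_1. The shared rule did not set this contrast directly, but it kept only genes whose libraries lie on the same side of siNC with both siRNAs. A shared gene was called alike when the 95% interval of this difference lay within 1.5-fold in both directions, and 3268 of the 6613 shared genes (49.4%) were alike. Over all 16761 genes tested the interval lay within these limits in 5405 (32.2%). Since the rule used the values of both siRNAs, nothing is read from the difference between these shares. They were 1470 shared higher and 1798 shared lower genes. By the edgeR test of siZIP7_2 against siZIP7_1, the change was larger with siZIP7_2 in 1178 shared higher and 1662 shared lower genes, and larger with siZIP7_1 in 967 and 961. The difference between the siRNAs was at least 2-fold, a log2 value of 1, in 531 shared higher and 506 shared lower genes, counted without a test. DLL4, a Notch ligand, and TGFBR3, a coreceptor of TGF-beta, were among the alike genes with the widest gaps upward. The antisense RNA AL138828.1 had a log2 difference between the siRNAs of -0.05 (95% interval -0.27 to 0.17), and the histone gene HIST1H3H one of 0.34 (0.11 to 0.58). The alike genes with the widest gaps downward, after CD96 and GJA1, were ARPIN, an inhibitor of the Arp2/3 complex, TRIM14, an adaptor of antiviral signalling, and SPTLC3, a subunit of serine palmitoyltransferase. ARPIN was at 47.2 to 49.2 CPM in siNC and at 6.83 to 9.57 CPM in the siZIP7 libraries. TRIM14 read 66.3, 67.8 and 61.2 CPM in siNC, 13.6, 12.8 and 14.3 CPM in siZIP7_1 and 14.5, 13.2 and 12.7 CPM in siZIP7_2, a log2 difference between the siRNAs of -0.01 (95% interval -0.17 to 0.14). SPTLC3 was at 43.3 to 45.9 CPM in siNC and at 8.38 to 10.5 CPM with either siRNA.

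**Figure D2:**
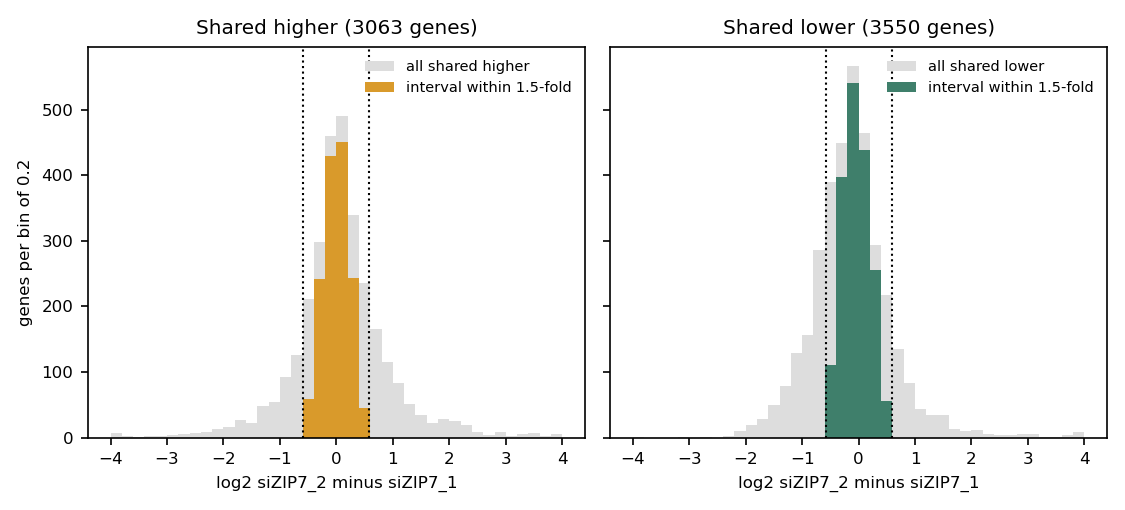
Number of shared genes (vertical axis) by the log2 difference of siZIP7_2 minus siZIP7_1 (horizontal axis, bins of 0.2, values beyond 4 in the end bins), with dotted lines at a 1.5-fold difference. Coloured bars are the 1470 shared higher and 1798 shared lower genes whose 95% interval lay between the lines, and grey bars are all shared genes.

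Lists of pathway genes were described by how many of their tested members were shared, beside the 18.3% and 21.2% over all genes. The list of the unfolded protein response holds chaperones, degradation factors and sensors, and its 40 members were all tested. Of these, 19 were shared higher, 4 were shared lower and 17 were neither, and edgeR called 28 higher and 8 lower. The median log2 fold change was 0.26. DNAJB9, an ER cochaperone that holds IRE1 inactive, had the widest gap. It read 19.6, 21.1 and 23.3 CPM in siNC, 40.4, 45.9 and 41.2 CPM in siZIP7_1 and 83.2, 68.4 and 78.9 CPM in siZIP7_2. Its log2 fold change was 1.42 (SE 0.066), and siZIP7_2 was above siZIP7_1 by 0.85 on the log2 scale. The 4 shared lower members were XBP1, the factor that IRE1 activates, WFS1, an ER membrane protein, DERL3, a retrotranslocation factor, and SEC24D, a cargo adaptor of export vesicles. XBP1 read 169, 170 and 161 CPM in siNC, 101, 100 and 103 CPM in siZIP7_1 and 120, 117 and 124 CPM in siZIP7_2, so its total mRNA fell (log2 fold change -0.60, SE 0.038). Counts per gene do not separate spliced from unspliced XBP1.

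**Figure D3:**
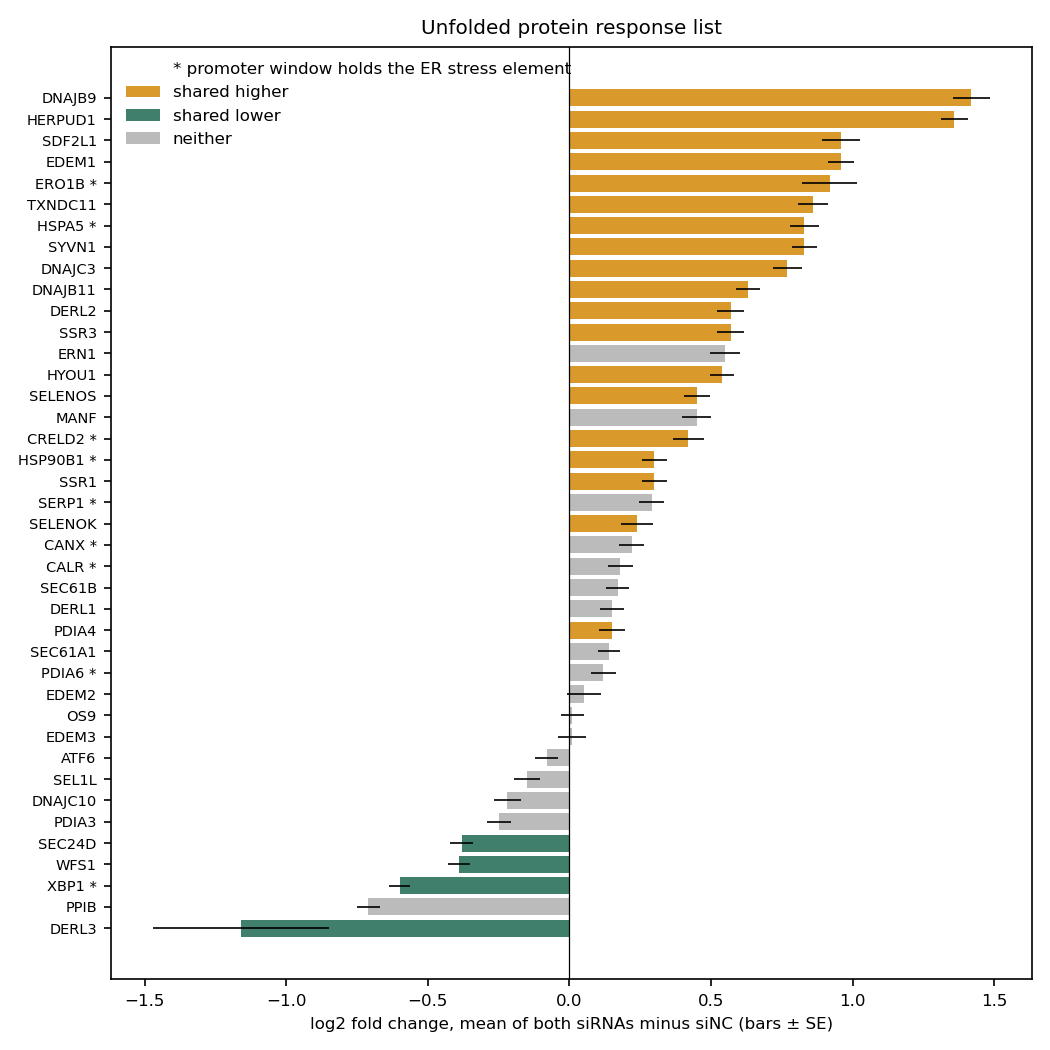
Log2 fold change of the mean of both siRNAs minus siNC (horizontal axis, error bars 1 SE of the edgeR fit) for the 40 genes of the unfolded protein response list, coloured by whether they were shared higher, shared lower or neither. DNAJB9 stands at 1.42 and XBP1 at -0.60, and the genes with a star hold an ER stress element in a promoter window.

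The ER stress element, to which ATF6 and the transcription factor NF-Y bind, was looked for in promoter windows from RefSeq (build GRCh38.p14, 250 bases before to 50 bases after a start site). It was written as CCAAT, then 9 of any base, then CCACG, on either strand. A window was found for 36 of the 40 genes of the list, and 9 of these genes held the element. It stood in 11 of their 45 windows (24.4%) and in 18 of the 16697 windows of all genes tested (0.108%). The list was made of known targets of these factors, so this share is not independent of it. The 9 genes were CALR, CANX, CRELD2, ERO1B, HSP90B1, HSPA5, PDIA6, SERP1 and XBP1. All but XBP1 were called higher with the mean of both siRNAs, and 4 of them were shared higher. The windows of these 4 and of XBP1 are printed 5′ to 3′ on the strand of the gene, with the element in capitals, to show the same element before genes that moved in opposite directions. They are from chr9:125241294-125241593 (- strand), chr12:103930160-103930459 (+ strand), chr22:49918384-49918683 (+ strand), chr1:236281909-236282208 (- strand) and chr22:28800520-28800819 (- strand), respectively.
HSPA5: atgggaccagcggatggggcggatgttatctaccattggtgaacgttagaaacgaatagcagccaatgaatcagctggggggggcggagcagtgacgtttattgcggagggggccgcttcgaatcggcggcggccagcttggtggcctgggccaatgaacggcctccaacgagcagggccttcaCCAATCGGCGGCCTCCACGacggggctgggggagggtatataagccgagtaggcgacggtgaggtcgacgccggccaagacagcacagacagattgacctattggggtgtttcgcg
HSP90B1: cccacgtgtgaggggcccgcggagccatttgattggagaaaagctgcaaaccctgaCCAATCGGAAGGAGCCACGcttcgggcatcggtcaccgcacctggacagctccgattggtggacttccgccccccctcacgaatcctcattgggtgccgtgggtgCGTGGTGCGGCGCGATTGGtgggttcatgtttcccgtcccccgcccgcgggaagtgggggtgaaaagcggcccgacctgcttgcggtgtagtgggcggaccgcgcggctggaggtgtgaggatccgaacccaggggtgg
CRELD2: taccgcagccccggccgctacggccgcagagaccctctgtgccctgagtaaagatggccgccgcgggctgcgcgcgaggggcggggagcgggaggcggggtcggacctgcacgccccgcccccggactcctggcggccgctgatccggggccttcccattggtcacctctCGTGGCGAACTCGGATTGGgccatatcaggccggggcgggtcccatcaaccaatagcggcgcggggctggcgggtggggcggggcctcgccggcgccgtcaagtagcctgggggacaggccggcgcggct
ERO1B: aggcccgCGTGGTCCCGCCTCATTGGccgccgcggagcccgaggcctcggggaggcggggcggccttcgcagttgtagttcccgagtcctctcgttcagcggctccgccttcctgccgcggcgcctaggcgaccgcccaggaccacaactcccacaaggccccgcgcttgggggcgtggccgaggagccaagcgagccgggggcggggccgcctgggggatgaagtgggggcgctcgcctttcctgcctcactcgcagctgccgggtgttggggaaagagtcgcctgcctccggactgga
XBP1: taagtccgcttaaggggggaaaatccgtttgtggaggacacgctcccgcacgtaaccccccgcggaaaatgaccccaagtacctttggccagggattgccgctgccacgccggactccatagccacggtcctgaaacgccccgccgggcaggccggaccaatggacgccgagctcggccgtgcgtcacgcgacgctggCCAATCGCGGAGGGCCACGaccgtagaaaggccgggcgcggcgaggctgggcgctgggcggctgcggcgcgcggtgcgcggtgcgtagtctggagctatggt

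HSPA5 is the main ER chaperone BiP, HSP90B1 is the chaperone GRP94, CRELD2 is a secreted ER stress protein and ERO1B is an oxidase of the ER. The last base of the element lay 48 bases before the start site in HSPA5, 62 in CRELD2, 225 in ERO1B and 34 in XBP1. HSP90B1 held a pair of elements, 176 and 71 bases before the start site. CRELD2 read 23.5, 23.8 and 23.5 CPM in siNC, 31.8, 32.4 and 30.2 CPM in siZIP7_1 and 33, 30.6 and 31.2 CPM in siZIP7_2. ERO1B read 6.24, 6.57 and 9.04 CPM in siNC, 16.2, 14.9 and 14.6 CPM in siZIP7_1 and 13.7, 13.1 and 11.1 CPM in siZIP7_2. Both were shared higher and alike between the siRNAs. HSP90B1 was higher in siZIP7_1 (1288 to 1464 CPM) than in siZIP7_2 (1099 to 1147 CPM), and at 983 to 1032 CPM in siNC. Among the other motifs, TGACGTGG stood in 4 of the 45 windows (8.89%) against 0.809% of all windows, CACGTG in 17.8% against 8.98%, TGANTCA in 4.44% against 5.66% and TGATGNAA in 2.22% against 2.08%. TGACGTCA was in none of them and in 2.70% of all windows. The letters of CACGTG can overlap both the element and TGACGTGG. Of the shared higher genes only 68.9% had a window, and of the shared lower genes 78.1%, so these motifs were not compared over them. A match is a string of letters and not a shown binding site.

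The ATF4 targets, which serve amino acid supply and the response to stress, did not move one way. Of 32 tested, 6 were shared higher (18.8%) and 8 shared lower (25%), near the 18.3% and 21.2% over all genes. The median log2 fold change was -0.02. ATF3, a stress-induced repressor, had the widest gap upward, with 15.6, 14.3 and 15.1 CPM in siNC, 26.1, 25 and 26.2 CPM in siZIP7_1 and 43.9, 41.6 and 41.4 CPM in siZIP7_2. SLC7A5, the light chain of a leucine transporter, had the widest gap downward, with 1846, 2033 and 1819 CPM in siNC, 1075, 1049 and 1055 CPM in siZIP7_1 and 727, 758 and 776 CPM in siZIP7_2. The median of this list changes its sign with the scaling (0.04 by library size alone), so no direction is given for the list.

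Genes of the ER to Golgi coats were shared higher in 14 and shared lower in 6 of 63 cases, which is 22.2% and 9.52% beside 18.3% and 21.2% over all genes, and the median log2 fold change was 0.03. GOLGA2, a Golgi matrix protein, rose from 113 to 117 CPM in siNC to 193 to 209 CPM in the siZIP7 libraries, and its log2 difference between the siRNAs was 0.00 (95% interval -0.09 to 0.10). COPG2, a coat subunit of returning vesicles, fell, with a log2 fold change of -0.92 (SE 0.054). In N-glycan assembly, which builds the sugar added to proteins in the ER, 4 of 49 genes were shared higher and 16 were shared lower. ALG6, a glucosyltransferase of that sugar, was at 18.9 to 20 CPM in siNC, 11.9 to 12.6 CPM in siZIP7_1 and 5.69 to 6.15 CPM in siZIP7_2. MAN1A1, a mannosidase that trims it in the Golgi, rose by a log2 fold change of 0.91 (SE 0.062).

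Genes of DNA replication were lower almost throughout. Of 50 tested, 46 (92%) were shared lower and none was shared higher, and edgeR called 48 lower. The median log2 fold change was -1.05, with -0.71 for siZIP7_1 and -1.35 for siZIP7_2. Among the 46 shared genes 16 (34.8%) were alike between the siRNAs, beside 49.4% of all shared genes. ORC3, a subunit of the origin recognition complex, had the widest gap. It read 44.1, 44 and 45.2 CPM in siNC, 16.3, 15.7 and 16.3 CPM in siZIP7_1 and 15.2, 17 and 16.2 CPM in siZIP7_2, and its log2 difference between the siRNAs was 0.01 (95% interval -0.13 to 0.15). The 4 members that were not shared were RFC1, ORC2, ORC4 and PRIM2, of which RFC1 was called higher (log2 fold change 0.10, SE 0.041). In bulk RNA, fewer cycling cells and less RNA of these genes per cell cannot be told apart. Mitosis genes followed with 34 of 47 shared lower (72.3%), none shared higher and 44 called lower. CENPE, a kinetochore motor, read 157, 148 and 153 CPM in siNC, 68.1, 74.8 and 67.1 CPM in siZIP7_1 and 57.1, 72.9 and 60 CPM in siZIP7_2. The mitosis list held 1 gene called higher, CENPA, which was not shared.

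The machinery that makes proteins was lower as well. Among cytosolic ribosomal proteins 70 of 84 (83.3%) were shared lower and 80 were called lower, with a median log2 fold change of -0.63. RPL22L1, a paralog of RPL22, had the widest gap, with 39, 41.8 and 44.1 CPM in siNC, 15.4, 16.9 and 16.3 CPM in siZIP7_1 and 18.6, 15.6 and 17.5 CPM in siZIP7_2. The only shared higher member was RPL26L1, another paralog, with 13.3 to 14.8 CPM in siNC, 25.2 to 29.3 CPM in siZIP7_1 and 16 to 17.1 CPM in siZIP7_2. Ribosomal proteins have many near-identical pseudogenes and reads with several alignments were not counted, so their levels are uncertain. In ribosome biogenesis, which makes and trims ribosomal RNA, 76 of 101 genes (75.2%) were shared lower and 91 were called lower. UTP20, a part of the small subunit processome, read 119, 116 and 112 CPM in siNC, 49.4, 53.2 and 47.8 CPM in siZIP7_1 and 39.7, 51 and 48.2 CPM in siZIP7_2. POLR1C, a subunit shared by RNA polymerases I and III, was the only shared higher member, with a log2 fold change of 0.20 (SE 0.045) and 18.2% of its exonic length overlapped by other genes. The host genes of small nucleolar RNAs, which guide the modification of ribosomal RNA, were shared lower in 13 of 22 cases and shared higher in 2. Mitochondrial ribosomal proteins were shared lower in 41 of 78 cases and higher in 3, and aminoacyl-tRNA synthetases in 16 and 3 of 37. MRPL42 fell from 98.8 to 120 CPM in siNC to 36.9 to 45.3 CPM in the siZIP7 libraries, while MRPL34 rose from 41.2 to 45.2 CPM to 78.3 to 85.4 CPM. EARS2, the mitochondrial glutamyl-tRNA synthetase, fell by 1.43 on the log2 scale, and CARS, the cytosolic cysteinyl-tRNA synthetase, rose by 0.28. All these medians were lower than 0 under each scaling tried.

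Energy metabolism moved less. Of 93 subunits of oxidative phosphorylation 9 were shared higher and 28 shared lower, with a median log2 fold change of -0.13. ATP5MC2, a nuclear-encoded ring subunit of ATP synthase, was at 104 to 114 CPM in siNC and at 52.7 to 61.8 CPM with either siRNA. MT-ND2, encoded by mitochondrial DNA, was at 1455 to 1612 CPM in siNC and at 1937 to 2373 CPM with either siRNA. In hypoxia and glycolysis 5 of 38 were shared higher (13.2%) and 9 shared lower (23.7%), beside 18.3% and 21.2% over all genes. SLC2A3, a glucose transporter, read 26.1, 27.1 and 27.2 CPM in siNC, 65.1, 66.1 and 62.1 CPM in siZIP7_1 and 86.1, 84.4 and 86 CPM in siZIP7_2. ENO1, the glycolytic enolase, fell, with a log2 fold change of -0.54 (SE 0.042).

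Genes that break down and recycle cell contents were among the shared higher ones. In autophagosome formation and cargo receptors 28 of 54 genes were shared higher and 3 shared lower, and edgeR called 38 higher and 4 lower. The median log2 fold change was 0.34. TP53INP1, which promotes autophagy and is also a p53 target, read 10.4, 8.03 and 11.6 CPM in siNC, 42.4, 41.1 and 41.6 CPM in siZIP7_1 and 36.6, 34 and 35.9 CPM in siZIP7_2. ATG3, the enzyme that joins LC3 to its lipid, went the other way, with 70, 76.2 and 72.5 CPM in siNC, 38.3, 37.4 and 38.7 CPM in siZIP7_1 and 47.5, 46.8 and 51.1 CPM in siZIP7_2. Lysosomal genes were shared higher in 26 of 68 cases and shared lower in 5. SGSH, a lysosomal sulfatase of heparan sulfate, read 25.3, 24.2 and 24.7 CPM in siNC, 75.7, 67.2 and 73.2 CPM in siZIP7_1 and 73.5, 64.7 and 65.4 CPM in siZIP7_2. CTSV, a lysosomal protease, fell from 2.03 to 2.79 CPM in siNC to 0.543 to 1.12 CPM in the siZIP7 libraries. Proteasome subunits were shared lower in 22 of 46 cases and shared higher in 3. The widest gap there was in PSMB9, an immunoproteasome subunit, and PSMD2, a subunit of the regulatory cap, rose by a log2 fold change of 0.34 (SE 0.041).

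Cholesterol synthesis and uptake had the highest share of shared higher genes of the 27 pathway lists, with 15 of 28 (53.6%) and a median log2 fold change of 0.54. STARD4, a carrier of cholesterol between membranes, read 48.3, 47.8 and 59.4 CPM in siNC, 124, 131 and 120 CPM in siZIP7_1 and 119, 114 and 118 CPM in siZIP7_2. The single shared lower gene was SCAP, the escort that brings SREBP factors from the ER to the Golgi. SCAP was at 90 to 96.6 CPM in siNC and at 84.7 to 89.5 CPM in siZIP7_1, a gap of 1.01-fold, and it was not shared when CPM were scaled by library size alone or by upper quartiles, or when each library had to hold at least 10 counts of a gene.

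Lists of stress and metal genes did not move alike. Of 27 p53 targets 13 were shared higher (48.1%) and 4 shared lower (14.8%), beside 18.3% and 21.2% over all genes. GDF15, described below, had their widest gap upward. PLK2, a polo-like kinase, had the widest gap downward, from 413 to 430 CPM in siNC to 191 to 232 CPM with either siRNA. Of 29 NRF2 targets, which detoxify oxidants, 3 were shared higher (10.3%) and 9 shared lower (31%). Their median log2 fold change was -0.54 for siZIP7_1 and 0.18 for siZIP7_2, so the siRNAs did not have the same direction over this list. HMOX1, which breaks down heme, read 15.1, 16.4 and 16.3 CPM in siNC, 28.2, 27.4 and 24.6 CPM in siZIP7_1 and 42, 35.5 and 38.9 CPM in siZIP7_2. NQO1, a quinone reductase, read 330, 331 and 350 CPM in siNC, 152, 168 and 147 CPM in siZIP7_1 and 172, 173 and 174 CPM in siZIP7_2, and 17.7% of its exonic length is overlapped by other genes. Of 23 genes of ferroptosis defence and lipid substrates 8 were shared higher (34.8%) and 2 shared lower (8.7%). GCH1, which starts the synthesis of the antioxidant tetrahydrobiopterin, read 11.5, 13.9 and 13.6 CPM in siNC, 26.7, 27.6 and 27.8 CPM in siZIP7_1 and 29, 26.9 and 30 CPM in siZIP7_2. DHODH, an enzyme of pyrimidine synthesis that reduces ubiquinone in mitochondria, fell from 19 to 21 CPM in siNC to 6.27 to 9.21 CPM in the siZIP7 libraries. Of 24 zinc transporters and metallothioneins 3 were shared higher (12.5%) and 2, of which 1 is SLC39A7, were shared lower (8.33%). Both shares are under those over all genes. SLC30A3, a zinc exporter into vesicles, was the one with the widest gap upward, at 0.387 to 0.676 CPM in siNC and 1.2 to 2.03 CPM in the siZIP7 libraries. Of 24 cytosolic heat shock genes 5 were shared higher (20.8%) and 6 shared lower (25%), near the 18.3% and 21.2% over all genes. HSPB8, a small heat shock protein, was at 1.96 to 2.14 CPM in siNC, 2.66 to 2.92 CPM in siZIP7_1 and 16.4 to 18.9 CPM in siZIP7_2. HSPD1, the mitochondrial chaperonin, fell by 0.95 on the log2 scale.

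Antigen presentation was lower in both classes. In MHC class II presentation 13 of 17 genes were shared lower and none was shared higher, with a median log2 fold change of -2.23, and none of the 13 was alike between the siRNAs. HLA-DMB, which loads peptides onto class II molecules, read 12.6, 11.4 and 12.5 CPM in siNC, 0.947, 0.824 and 0.784 CPM in siZIP7_1 and 2.6, 2.8 and 2.27 CPM in siZIP7_2. In MHC class I presentation 17 of 22 genes were shared lower, with a median of -0.86. PSMB9 read 29.4, 30.4 and 30.1 CPM in siNC, 9.07, 8.73 and 9.29 CPM in siZIP7_1 and 4.97, 5.49 and 5.34 CPM in siZIP7_2. HLA genes share much sequence with each other and their counts are uncertain for that reason. Interferon-stimulated genes split, with 8 of 48 shared higher (16.7%) and 13 shared lower (27.1%). Their median log2 fold change was -0.49 for siZIP7_1 and 0.01 for siZIP7_2. IFIT3, an antiviral protein, read 77.5, 71 and 83.5 CPM in siNC, 199, 222 and 195 CPM in siZIP7_1 and 222, 207 and 210 CPM in siZIP7_2, while TRIM14 fell as given above.

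Of 90 histone genes the low-count filter kept 38, of which 19 were shared higher and 7 shared lower. Their median log2 fold change was 1.37, with 0.86 for siZIP7_1 and 2.07 for siZIP7_2. The filter can keep a gene that is high in a single group, so this median may lean upward. Of the 26 shared members 7 (26.9%) were alike between the siRNAs, beside 49.4% of all shared genes. Most histone mRNAs lack a poly(A) tail, and the sources used here do not say how RNA was selected for the libraries. H2AFV, a variant histone, was the shared lower member with the widest gap, at 187 to 203 CPM in siNC, 73.9 to 78.7 CPM in siZIP7_1 and 156 to 167 CPM in siZIP7_2. Of 22 genes of the epithelial to mesenchymal state 7 were shared higher (31.8%) and 3 shared lower (13.6%). Only 1 of these 10, VIM, was alike between the siRNAs. VIM, the mesenchymal filament, read 5567, 5688 and 5333 CPM in siNC, 2636, 2808 and 2618 CPM in siZIP7_1 and 2816, 2937 and 2935 CPM in siZIP7_2, and 24.4% of its exonic length is overlapped by other genes. SPARC, a matrix protein, rose from 0.301 to 0.641 CPM to 1.41 to 4.89 CPM. Of 31 YAP and TAZ targets 8 were shared higher (25.8%) and 10 shared lower (32.3%), beside 18.3% and 21.2% over all genes. LATS2, a kinase that inhibits YAP, rose by 0.98 on the log2 scale, and FJX1, a secreted kinase-like protein, fell by 1.20.

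**Figure D4:**
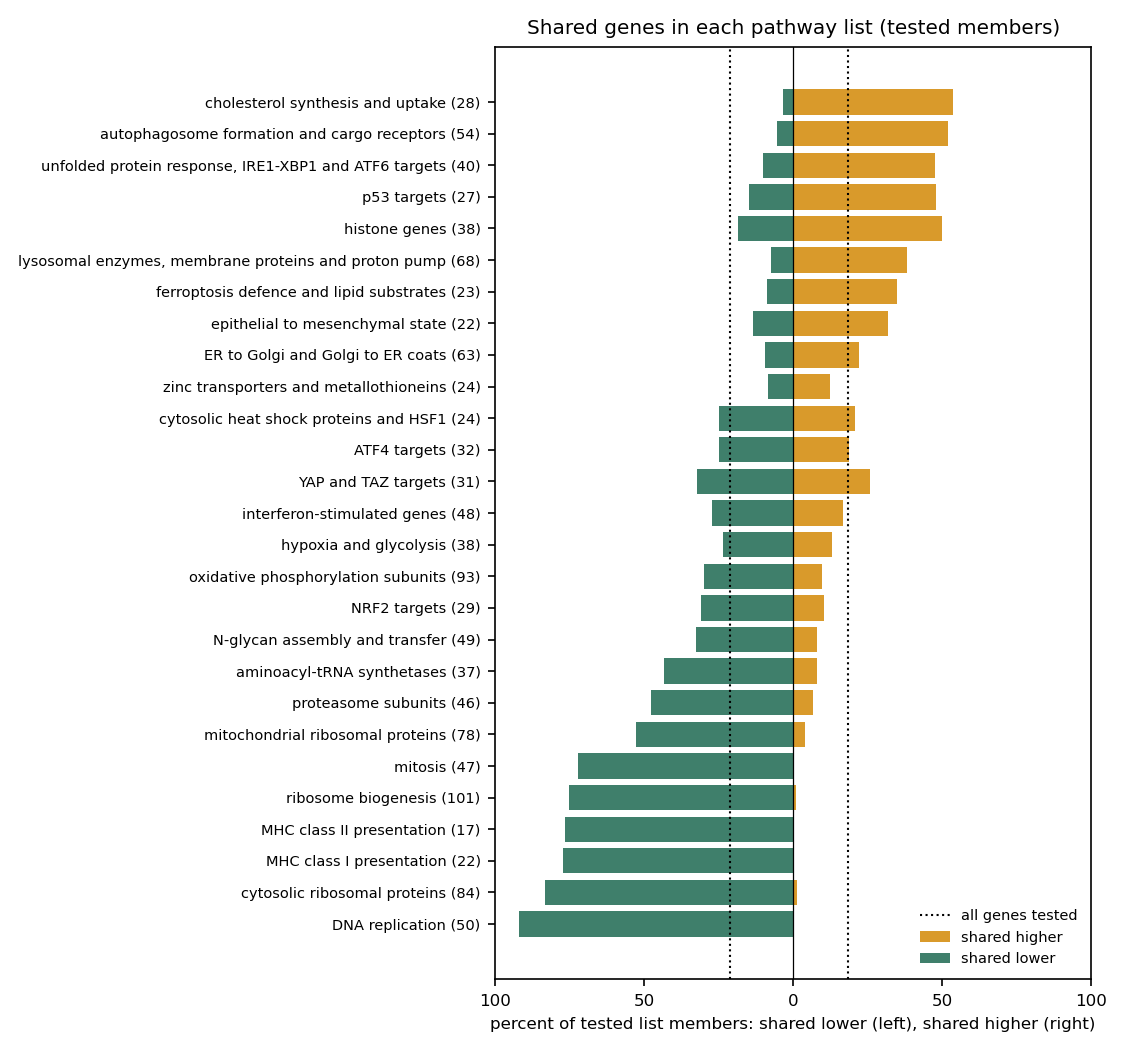
Percent of the tested members of each of 27 pathway lists (number tested in brackets) that were shared higher (bars to the right) or shared lower (bars to the left), with dotted lines at the 18.3% and 21.2% of all genes tested. DNA replication reaches 92% to the left and cholesterol synthesis and uptake 53.6% to the right.

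Secreted proteins carry signals and build the matrix outside the cell. Over 7 lists, 372 of 680 genes were tested, 71 were shared higher and 58 shared lower, which is 19.1% and 15.6% beside 18.3% and 21.2% over all genes. The median log2 fold change of these 372 genes was -0.41 for siZIP7_1 and 0.73 for siZIP7_2. The low-count filter can keep a gene that is high in a single group. These medians may reflect which genes were kept, so no direction of the group is read from them. Among the shared secreted genes 35 were alike. Among signals, PDGFB, a ligand of platelet-derived growth factor receptors, read 4.76, 3.52 and 3.7 CPM in siNC, 32.5, 34 and 30.1 CPM in siZIP7_1 and 23.8, 19 and 21.6 CPM in siZIP7_2. GDF15, a stress-induced ligand of the TGF-beta superfamily, was at 9.67 to 11 CPM in siNC, 99.7 to 116 CPM in siZIP7_1 and 42.7 to 46.5 CPM in siZIP7_2. BMPER, a secreted modulator of BMP signalling, read 1.49, 1.2 and 1.42 CPM in siNC, 5.75, 5.5 and 4.99 CPM in siZIP7_1 and 6.02, 6.42 and 6 CPM in siZIP7_2. It was the 1 of these 5 that was alike, with a log2 difference between the siRNAs of 0.19 (95% interval -0.04 to 0.42). RELN, the matrix glycoprotein reelin, had the widest gap upward among the genes on the secreted lists, which do not hold KISS1. RELN read 2.51, 3.39 and 2.78 CPM in siNC, 19.2, 17.9 and 20 CPM in siZIP7_1 and 95.9, 73.1 and 89.7 CPM in siZIP7_2. VWF, von Willebrand factor of endothelial cells, was at or near the floor in siNC, with 0, 0.0859 and 0.142 CPM, and read 0.983, 0.824 and 0.878 CPM in siZIP7_1 and 4.08, 3.78 and 3.77 CPM in siZIP7_2. The 10 endothelial markers summed to 267 to 287 CPM in siNC, 345 to 358 CPM in siZIP7_1 and 339 to 370 CPM in siZIP7_2. ESAM and ROBO4 made up most of these sums and moved in opposite ways. ESAM was at 193 to 210 CPM in siNC, 285 to 294 CPM in siZIP7_1 and 174 to 186 CPM in siZIP7_2. ROBO4 was at 66.4 to 69.6, 50.1 to 54.3 and 147 to 166 CPM in the same order, and PECAM1 at 2.88 to 3.28, 0.0627 to 0.172 and 7.88 to 9.08 CPM. VWF was the only shared one, and CLDN5 was at 0 in siNC and siZIP7_1. The 8 fibroblast markers summed to 58 to 64.4 CPM in siNC, 123 to 133 CPM in siZIP7_1 and 191 to 218 CPM in siZIP7_2, mostly from COL1A1. Of the 4 tested ones, 3 (COL1A1, PDGFRB and LUM) were shared higher. COL3A1, the other tested one, was at 0.0712 to 0.182 CPM in siNC, 0.0314 to 0.0728 CPM in siZIP7_1 and 5.33 to 7.65 CPM in siZIP7_2. DCN was at 0 to 0.0712 CPM in all libraries. The part of such cells in the levels of matrix, mesenchymal and endothelial genes was not tested.

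The 58 shared lower secreted genes came from all 7 secreted lists, with 15 of them on the matrix list, 14 on the protease list, 11 on the list of hormones and other effectors and 10 on the growth factor list. The 5 with the widest gaps were these. HAS2, a membrane enzyme that makes and extrudes hyaluronan, read 70.2, 82.6 and 77.2 CPM in siNC, 1.13, 1.65 and 1.1 CPM in siZIP7_1 and 10.6, 11.5 and 7.81 CPM in siZIP7_2. THBS1, the matrix glycoprotein thrombospondin-1, read 4751, 4584 and 4705 CPM in siNC, 1343, 1305 and 1291 CPM in siZIP7_1 and 1600, 1629 and 1715 CPM in siZIP7_2. THBS1 was alike between the siRNAs, with a log2 difference of 0.33 (95% interval 0.23 to 0.43), while HAS2 was not (2.95, 95% interval 2.63 to 3.28). SCG2, a protein of secretory granules, read 11.5, 10.4 and 14.2 CPM in siNC, 1.86, 2.4 and 1.98 CPM in siZIP7_1 and 1.9, 1.94 and 1.54 CPM in siZIP7_2. PRSS2, a trypsinogen with close paralogs and for that reason uncertain, was at 18.3 to 20.9 CPM in siNC, 1.55 to 1.97 CPM in siZIP7_1 and 4.34 to 5.67 CPM in siZIP7_2. ADAMTSL3, a matrix glycoprotein, was at 5.45 to 6.23 CPM in siNC and at 0.816 to 1.97 CPM in the siZIP7 libraries.

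Surface proteins receive signals and hold cells together. Over 9 lists, 853 of 1595 genes were tested, 185 were shared higher (21.7%) and 143 shared lower (16.8%), beside 18.3% and 21.2% over all genes. The median log2 fold change of these 853 genes was -0.07 for siZIP7_1 and 0.36 for siZIP7_2. These medians may also reflect which genes the low-count filter kept. The receptors and surface ligands of Notch, Wnt, TGF-beta and guidance pathways were shared higher in 24 (31.2%) and shared lower in 11 (14.3%) of 77 cases. Of these 35, 21 were alike. EFNA1, a ligand of EphA receptors, read 2.47, 2.28 and 2.06 CPM in siNC, 15.3, 15.5 and 15.1 CPM in siZIP7_1 and 27.7, 22.8 and 26.5 CPM in siZIP7_2. EFNB2, a ligand of EphB receptors, moved the other way and read 126, 139 and 129 CPM in siNC, 36.1, 38.3 and 36.7 CPM in siZIP7_1 and 32.7, 32.1 and 33.2 CPM in siZIP7_2, and 26.2% of its exonic length is overlapped by other genes. DLL4 read 0.327, 0.215 and 0.285 CPM in siNC, 2.51, 1.79 and 2.45 CPM in siZIP7_1 and 1.98, 2.14 and 1.92 CPM in siZIP7_2. The ephrin ligands thus differed in direction, with log2 fold changes of 3.12 (SE 0.1) for EFNA1 and -1.92 (SE 0.043) for EFNB2. TGFBR3 read 12, 12.1 and 12.8 CPM in siNC, 59.6, 59.4 and 58.8 CPM in siZIP7_1 and 68.7, 62.7 and 68.1 CPM in siZIP7_2.

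Among G protein-coupled receptors 21 of 123 were shared higher (17.1%) and 26 shared lower (21.1%), near the 18.3% and 21.2% over all genes. ADRB1, the beta-1 adrenergic receptor, was at 0.29 to 0.644 CPM in siNC, 5.32 to 6.94 CPM in siZIP7_1 and 2.7 to 2.77 CPM in siZIP7_2. VIPR1, a receptor of vasoactive intestinal peptide, read 169, 162 and 172 CPM in siNC, 23.6, 23.4 and 22.8 CPM in siZIP7_1 and 8.66, 9.51 and 9.38 CPM in siZIP7_2. ADGRL3, an adhesion receptor of the latrophilin family, was at 47.9 to 53.5 CPM in siNC and at 10.3 to 14.6 CPM with either siRNA. Of 126 ion channels 27 were shared higher (21.4%) and 16 shared lower (12.7%), the lower ones with GJA1, the gap junction protein connexin 43. GJA1 read 28.6, 32.1 and 30.8 CPM in siNC, 4.08, 4.5 and 4.55 CPM in siZIP7_1 and 5.16, 5.59 and 4.88 CPM in siZIP7_2. Solute carriers were shared higher in 33 of 150 cases (22%) and shared lower in 21 (14%). SLC26A11, an anion exchanger, read 8.17, 7.86 and 7.97 CPM in siNC, 37.1, 33.2 and 37.7 CPM in siZIP7_1 and 47.2, 44.5 and 43.3 CPM in siZIP7_2.

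**Figure D5:**
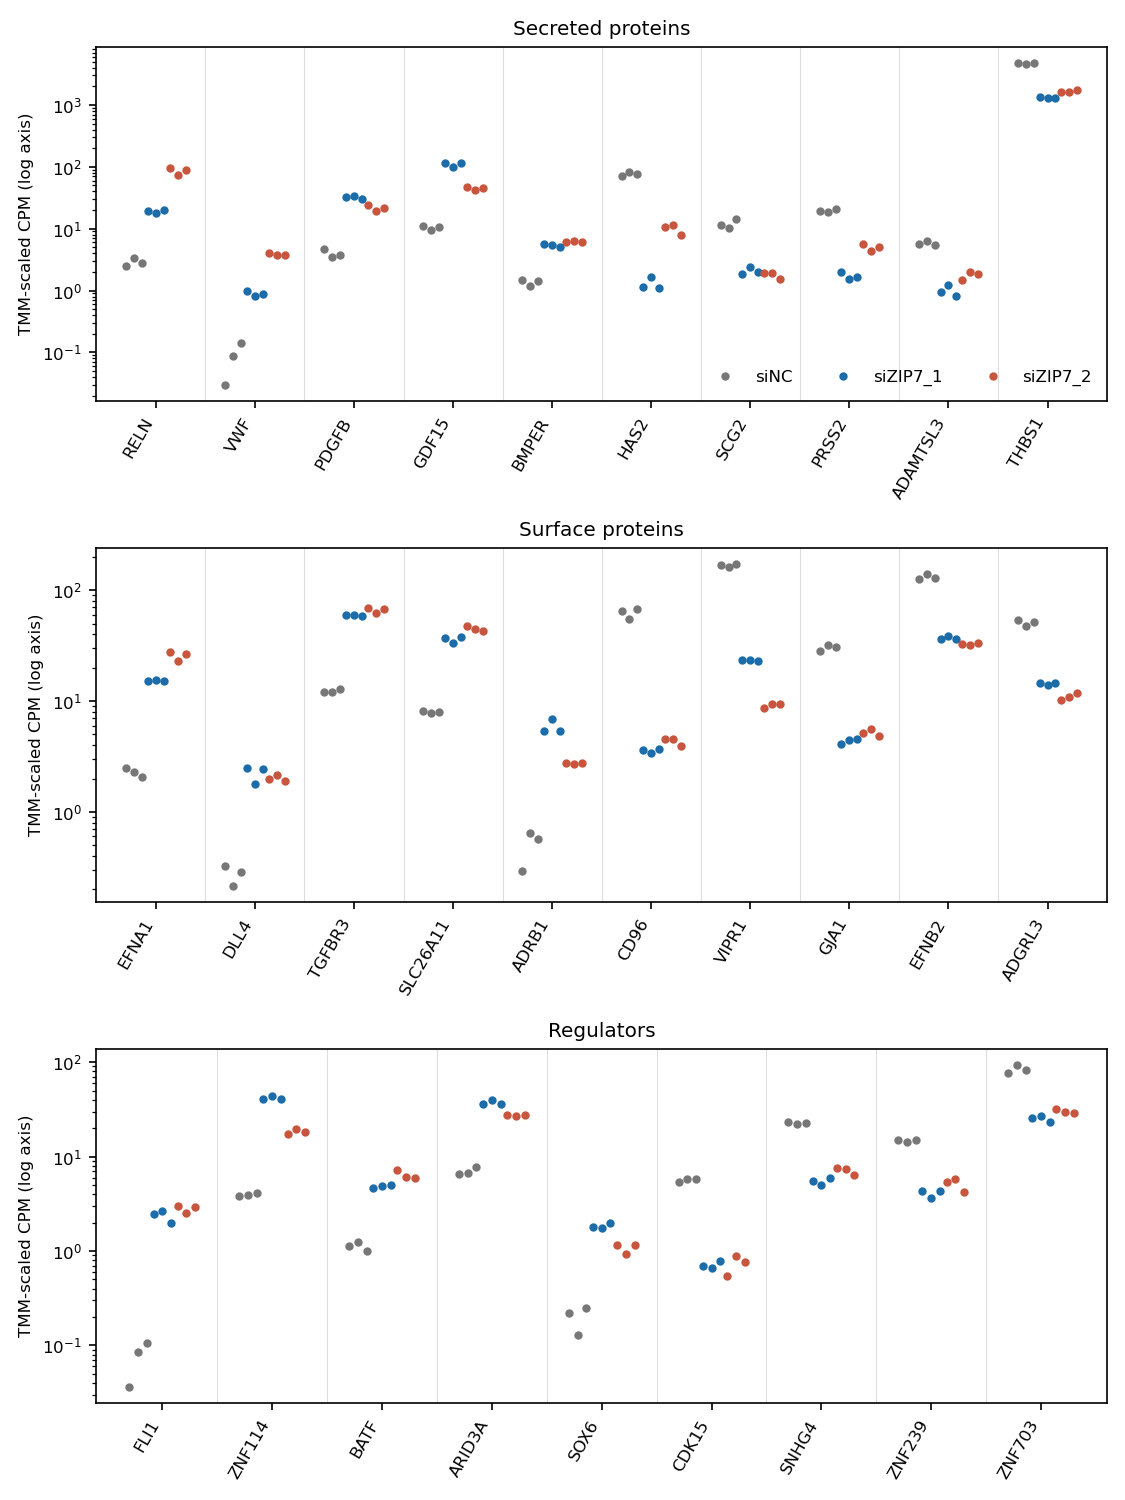
TMM-scaled CPM on a log axis of each library (1 point per library, 3 per group) for the named genes with the widest gaps among secreted proteins, surface proteins and regulators, with a value of 0 drawn at 0.03. RELN and VWF are highest in siZIP7_2, GDF15 and ZNF114 are highest in siZIP7_1, and DLL4, BMPER and EFNB2 lie at like levels with both siRNAs.

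Regulators are the transcription factors, chromatin enzymes and signalling modulators that set the levels of other genes. Over 13 lists, 1296 of 1589 genes were tested, 315 were shared higher (24.3%) and 237 shared lower (18.3%), beside 18.3% and 21.2% over all genes. Of these shared regulators, 307 were alike. The C2H2 zinc finger proteins, most of them repressors that bind DNA through zinc-holding domains, were the largest list, with 155 of 530 shared higher (29.2%) and 64 shared lower (12.1%). Their median log2 fold change was 0.20, and 131 of the shared ones were alike. ZNF114 read 3.81, 3.91 and 4.16 CPM in siNC, 40.9, 44.2 and 40.6 CPM in siZIP7_1 and 17.5, 19.4 and 18 CPM in siZIP7_2. ZNF239 went down, from 14.3 to 15.1 CPM in siNC to 3.64 to 5.82 CPM with either siRNA. ZNF703, a corepressor of breast epithelium, fell from 76 to 92.5 CPM to 23.2 to 31.9 CPM.

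FLI1, an ETS factor of blood and endothelial cells, was at or under the floor in siNC, with 0.0363, 0.0859 and 0.107 CPM and at most 3 counts. It read 2.44, 2.65 and 1.98 CPM in siZIP7_1 and 2.99, 2.5 and 2.92 CPM in siZIP7_2, and no fold is given against counts so low. BATF, an AP-1 family factor, read 1.13, 1.25 and 0.997 CPM in siNC, 4.66, 4.84 and 4.99 CPM in siZIP7_1 and 7.18, 6.12 and 5.92 CPM in siZIP7_2. ARID3A, a DNA-binding protein that works with E2F factors, was at 6.5 to 7.72 CPM in siNC, 36 to 40.1 CPM in siZIP7_1 and 26.6 to 27.9 CPM in siZIP7_2. SOX6, a developmental factor, was at 0.129 to 0.249 CPM in siNC and at 0.921 to 1.98 CPM in the siZIP7 libraries. SNHG4, a host gene of a small nucleolar RNA, fell from 22.3 to 23.4 CPM in siNC to 5.05 to 7.65 CPM with either siRNA, and 16.6% of its exonic length is overlapped by other genes. Among E2F factors, cyclins and cell cycle inhibitors, 13 of 67 were shared higher (19.4%) and 21 shared lower (31.3%), led downward by CDK15. Chromatin and DNA methylation enzymes were shared higher in 32 (19.2%) and shared lower in 43 (25.7%) of 167 cases, not far from the 18.3% and 21.2% over all genes.

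In kind, the shared higher genes were near all tested genes, and the shared lower genes held fewer non-coding ones. Protein-coding genes made up 91.5% of the shared lower and 81.1% of the shared higher genes, beside 79.5% of all tested. Long non-coding RNAs were 6.25% of the shared lower genes (222 genes), 14.8% of the shared higher (453 genes) and 15.3% of all tested. The median level was 35.1 CPM in the shared lower genes, 20.7 CPM in the shared higher genes and 17.9 CPM over all tested. By chromosome, the share of shared higher genes was highest on chromosomes 17 (22.8%) and 19 (21.6%) and lowest on chromosome 21 (13.2%). The share of shared lower genes ran from 16.9% on chromosomes 18 and 19 to 24.4% on chromosome 5.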

How the data were processed

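The data were single-read RNA-seq of MDA-MB-231 cells, 9 libraries in 3 groups taken from the sample labels. The authors deposited unnormalized read counts for Ensembl gene identifiers. The submitters' processing notes name Trim Galore 0.4.1, FastQC 0.11.2, STAR, HTSeq 0.6.1 and DESeq2 1.16.1. The genome build, annotation and strand setting are not given in the sources used here. Reads on no gene (7.43 to 11.5% per library) or on several genes were left out, and no reads with several alignments were counted. GENCODE release 29 gave symbols for 58275 of 58395 identifiers. Reads from overlapping or antisense genes may be mixed.

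In R 4.3.3, edgeR 4.0.16 (TMM scaling, low-count filter, quasi-likelihood test, adjusted p under 0.05 by Benjamini-Hochberg) was used in 1 fit over 9 libraries (6 residual degrees of freedom). The SE is the log2 fold change divided by the square root of F, and log2 CPM for gaps used a prior count of 2. The fit was tested on simulated data. Genes named had a mean of at least 1 CPM, passed the threshold, and had the widest gaps: 6 in each direction over all genes, 5 among secreted, surface, regulator and alike genes, and the widest in each pathway list. 1 gene that this rule names is not reported here. PAF1, IGF2BP3, genes with the ER stress element, markers and exceptions in lists were named after their values were seen. The members and lists were chosen with earlier results of these data known. Alternatives were other scalings and filters, DESeq2 1.42.0, a 1.5-fold minimum, a replicate block, and leaving out each library.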

Additional observations from a re-analysis of the deposited data

How the results depend on the processing

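Replicate numbers did not pair the libraries. The deviations of same-numbered libraries from their group means correlated between -0.0493 and 0.0754 over 9 pairs, those of differently numbered ones between -0.125 and 0.113. With the replicate block 5933 genes were called higher and 6395 lower with the mean of both siRNAs, and 3284 shared genes were alike. Asking for a gap of at least 1.5-fold left 766 shared higher and 680 shared lower genes, and testing against a 1.5-fold change (glmTreat) left 2234 higher and 2126 lower calls. The other counts stayed within 1.5 times of those given. DESeq2 called 5715 higher and 5943 lower. Shared lower genes outnumbered shared higher ones by TMM and by DESeq2 size factors (3444 and 3139), while shared higher genes were more by library size alone (3484 against 3078) and by upper quartiles (3454 against 3134). These scalings moved the median log2 fold change of all genes from -0.007 to at most 0.059. Without a low-count filter 3135 were shared higher and 3989 lower, and when each library had to hold 10 counts or more 2846 and 3078. Leaving out each library gave 3218 to 3493 shared higher and 3595 to 3880 shared lower genes, 5581 to 5970 and 6002 to 6477 calls, and 3162 to 3456 alike genes. Each log2 fold change of the named genes kept its direction and its side of the threshold in every setting that tested it. FLI1, TMC8, VWF, DLL4, ADRB1, SOX6, SLC30A3 and SPARC were not tested under that stricter filter. Depth limits genes near the floor of 3 counts, such as FLI1 and VWF in siNC.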

Other observations

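SLC39A7 lies among MHC class II genes on chromosome 6, and the tested genes beside it were read after their values were seen. In GENCODE release 29, RXRB, a nuclear receptor gene, is its neighbour on one side and HSD17B8, an enzyme of fatty acid synthesis in mitochondria, on the other. Mean RXRB was 110 CPM in siNC, 114 CPM in siZIP7_1 and 77.5 CPM in siZIP7_2. Mean HSD17B8 was 6.04, 4.61 and 1.17 CPM in the same order, and it was shared lower (log2 fold change -1.38). RING1, a Polycomb ubiquitin ligase, VPS52, a tethering factor of the Golgi, and RPS18 were also shared lower, with -0.59, -0.67 and -0.81. COL11A2, HCG25 and B3GALT4 were not called, with 0.08, -0.00 and 0.18. Of the 12 tested genes read, 6 on each side in order of start, 7 were shared lower and 1, the antisense RNA AL645941.3, was shared higher. Over all genes tested 21.2% were shared lower and 18.3% shared higher. The 7 include HLA-DOA, HLA-DPA1 and HLA-DPB1, class II genes of a kind that was lower as a list. Whether the place beside SLC39A7 had a part in these levels was not tested.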
